A study of Mus musculus with 2 samples.

Results

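The thin filament genes of heart muscle were examined in a list of RNA sites enriched with FLAG-tagged NAT10 from mouse heart tissue. They were 8 genes chosen by name for their place in this structure, with earlier results of these data known. These are the troponins Tnnc1, Tnnt2, Tnni3 and Tnni1, the tropomyosin Tpm1, the actins Actc1 and Acta1, and the leiomodin Lmod2. The deposited list gives summits, the single bases at which RIP signal over Input was highest, and a gene counted as a member with a summit when its symbol stood beside one. Of the 8 genes, 3 had a summit, with 6 of the 2020 summits in the list. A further 2 summits, in Tnnt2 and Tpm1, were placed by the list in no gene although they lie inside these genes, and they are given separately.

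The study held 1 RIP library and 1 Input library of heart tissue. Both came from WT mice that had received AAV9-cTnT-FLAG-NAT10 under the skin at day 1 after birth and were killed at day 20 after the injection. RIP was the RNA recovered on anti-FLAG beads, and Input was 10% of the lysate. The cTnT promoter, that of cardiac troponin T, is active in heart muscle cells. How many mice gave the tissue is not given in the sources used here. No pulldown from hearts without FLAG-NAT10 was analysed here, so RNA that clings to beads cannot be told apart from RNA held by NAT10. With 1 library on each side there was no replicate and no test, and every value describes these libraries. Fewer cells of a type and less RNA per cell also cannot be told apart in tissue.

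The thin filament is the actin strand on which myosin pulls. Tropomyosin lies along the strand and covers the sites for myosin, and the troponin complex moves it aside: troponin C binds calcium, troponin I inhibits until calcium arrives, and troponin T anchors the complex to tropomyosin. Leiomodin 2 binds the pointed end of the strand and promotes its lengthening. Adult heart muscle uses the cardiac forms encoded by Tnnc1, Tnnt2, Tnni3, Tpm1 and Actc1, while Tnni1 (slow skeletal troponin I) and Acta1 (skeletal alpha-actin) belong to the fetal and newborn heart and to skeletal muscle. NAT10 acetylates cytidine in RNA.

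The summits of Tnnc1 and Tnni3 lay in the last exon by the list, and that of Tnnt2 near the 3′ end of its gene. The coding ends of these 3 troponin mRNAs are therefore shown. These are the last 90 coding bases, stop codon included, of the canonical transcripts in GENCODE mouse release 39 (built on GRCm39, read from the transcript and not by position), written 5′ to 3′ on the sense strand. Capitals mark the part in the last exon, which is 32 bases in Tnnc1 (chromosome 14, plus strand), 84 in Tnni3 (chromosome 7, minus strand) and 46 in Tnnt2 (chromosome 1, plus strand).
Tnnc1: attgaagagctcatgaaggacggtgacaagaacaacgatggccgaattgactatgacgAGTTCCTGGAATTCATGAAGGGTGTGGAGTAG
Tnni3: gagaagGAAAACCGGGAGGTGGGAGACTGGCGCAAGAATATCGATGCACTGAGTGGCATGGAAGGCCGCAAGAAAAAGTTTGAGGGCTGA
Tnnt2: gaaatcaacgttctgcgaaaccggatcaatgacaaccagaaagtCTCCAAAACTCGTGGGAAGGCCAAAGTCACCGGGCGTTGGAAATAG

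The first 90 coding bases of Tpm1 (chromosome 9, minus strand) are shown because 1 summit fell near the start of its mRNA. The capital marks where it would lie, counted from the RefSeq start.
Tpm1: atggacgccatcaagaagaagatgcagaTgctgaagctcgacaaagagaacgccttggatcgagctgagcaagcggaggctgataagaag

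The same stretch of both actin mRNAs is shown because neither had a summit although their sequences are close. Capitals mark the 14 of 90 bases at which Actc1 (chromosome 2, minus strand) and Acta1 (chromosome 8, minus strand) differ.
Actc1: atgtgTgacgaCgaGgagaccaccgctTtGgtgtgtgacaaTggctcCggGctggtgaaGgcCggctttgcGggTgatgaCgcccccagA
Acta1: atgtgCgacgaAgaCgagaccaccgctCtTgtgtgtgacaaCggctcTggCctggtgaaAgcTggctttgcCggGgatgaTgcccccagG

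Among the 8 thin filament genes 3 had a summit, which is 37.5% (exact Clopper-Pearson 95% interval 8.52 to 75.5%, counting error only), against 4.22% of all 21770 annotated protein-coding genes. The 3 were Tnnc1, Tnni3 and Tpm1. The all-gene share takes in genes that heart tissue does not express, so it is a base rate and not a measure of preference for these mRNAs. The members were chosen with earlier results of these data known, so the comparison is only descriptive. The list gives neither read counts nor Input levels, and a more abundant RNA can give a higher score. Tnnt2, Tnni1, Actc1, Acta1 and Lmod2 had no summit in the list's own assignment, which means that none passed its threshold and not that the RNA was absent.

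The score of a summit, as the authors deposited it, was read from its values as the -log10 of the peak caller's p or q, since the header of its column is lost. The strongest score per gene was 351 for Tnnc1, 97.1 for Tpm1 and 6.09 for Tnni3. Their median, 97.1, is the value of Tpm1 alone and compares with 14.2 over all 919 protein-coding genes with a summit. It was 66.5 over the 4 genes with a summit by RefSeq bounds, and 13.9 when each of the 3 was given the median of its summits in place of the strongest, so its height rests on 1 summit of Tpm1. The 3 genes stood far apart: Tnnc1 held place 10 among the 919 genes, Tpm1 place 57 and Tnni3 place 727. When only summits at or above the median score of the list (12.5) were kept, Tnnc1 and Tpm1 stayed and Tnni3 dropped out, against 2.29% of all genes. The same 2 genes stayed at or above the upper quartile (28.3), against 1.04% of all genes.

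**Figure D1:**
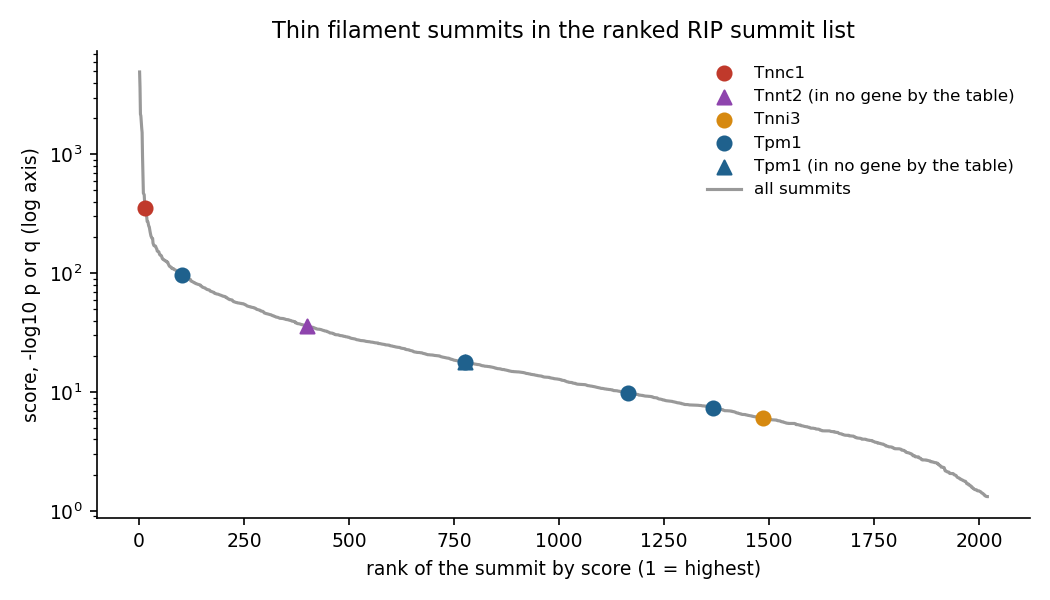
Score of each summit (-log10 p or q, log axis) against its rank among all 2020 summits. Circles are the 6 summits that the list assigns to Tnnc1, Tnni3 or Tpm1, triangles the 2 inside Tnnt2 and Tpm1 that it places in no gene, and the grey line is the whole list. Tnnc1 stands at rank 15 and Tnni3 at rank 1486, and a Tpm1 circle and triangle overlap at ranks 776 and 775.

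Troponin C, the calcium sensor, carried the strongest signal of the thin filament. The only summit of Tnnc1 (ENSMUSG00000091898) lay at position 31211519 of chromosome 14 in GRCm38, with a score of 351 and rank 15 of 2020. The next higher score in the list was 377 and the next lower 350. The list placed it in the last exon. It lay 210 bases before the 3′ end of the gene in RefSeq, and the 3′ UTR of the canonical transcript is 192 bases long. With the end taken as the same base, the summit is the 19th coding base counted back from the end and base 14 of the last exon, within the capitals of the Tnnc1 line. The RefSeq gene and the canonical transcript both span 3418 bases, so the ends can be set side by side here.

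Tnnc1 has a short mRNA, and few genes of such length had a summit. Its canonical transcript has 721 bases, and of the 2281 protein-coding genes with a transcript under 1000 bases, 25 had a summit (1.10%). Both members of that length, Tnnc1 and Tnni3, were among the 25. Among all 25, Tnnc1 held place 3 by score and Tnni3 place 18. Of the 23 nuclear genes among them, Tnnc1 had the highest score and Tnni3 held place 16. The share with a summit grew with length over all genes. It was 2.07% from 1000 bases to below 2000, 3.24% from 2000 to below 4000, and 7.70% at 4000 and over. No member was in this last class. The median of the strongest score did not grow with length. From the shortest class to the longest it was 13.9, 15.3, 16.3 and 13.4. Of the 3 members from 1000 to below 2000 bases (Tnnt2, Tnni1 and Acta1) none had a summit in the list's assignment, and of the 3 from 2000 to below 4000 (Tpm1, Actc1 and Lmod2) only Tpm1 did.

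**Figure D2:**
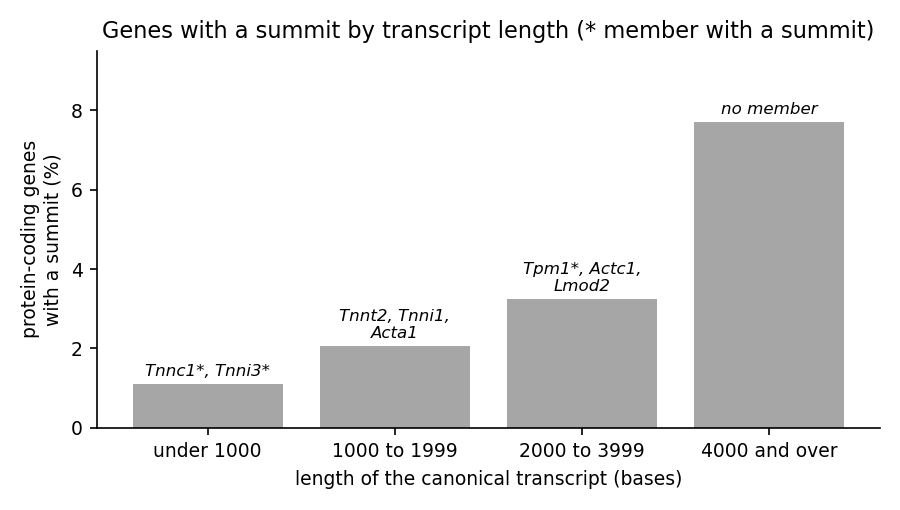
Share of protein-coding genes with a summit (bars, percent) in 4 classes of canonical transcript length in bases. Gene names are the members in each class, and an asterisk marks a member with a summit. Tnnc1 and Tnni3 both had one in the shortest class, where 1.10% of genes did.

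Troponin I, the inhibitory subunit, had a weak summit in its adult cardiac form and none in its fetal form. The summit of Tnni3 (ENSMUSG00000035458) lay at 4518390 on chromosome 7 with a score of 6.09, rank 1486 of 2020. This is below the median of the list, and neighbours in rank scored 6.11 and 6.09. It too was placed in the last exon. It lay 85 bases before the RefSeq 3′ end, beyond a 3′ UTR of 67 bases, so that it would again be the 19th coding base from the end. The RefSeq gene spans 4414 bases and the canonical transcript 4228, and it was not tested whether they end at the same base. By the closest transcription start the summit belonged to Tnnt1 (slow skeletal troponin T), whose gene neighbours Tnni3, although it overlaps only Tnni3. Tnni1 (ENSMUSG00000026418) had no summit, and the nearest one lay 14175 bases away in Phlda3.

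Troponin T, which ties the complex to tropomyosin, had no summit by the genes that the list overlaps, and 1 by RefSeq bounds or by the closest transcription start. The summit at 135852139 on chromosome 1 scored 35.9 (rank 399 of 2020, neighbours in rank 36.0 and 35.8) and overlapped no gene in the list. It lies inside Tnnt2 in RefSeq GRCm38 (135836315 to 135852268), 129 bases before its 3′ end. The model of Tnnt2 that the list used ran from 135836390 to 135839719, which is 3330 bases, whereas the RefSeq gene spans 15954. Among the 52 Tnnt2 transcripts of GENCODE, the 1 with that span is a retained-intron transcript. The canonical Tnnt2 transcript has a 3′ UTR of 505 bases.

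With RefSeq bounds for every gene, 4 of the 8 members had a summit (50.0%, interval 15.7 to 84.3%), against 4.42% of 21900 RefSeq protein-coding genes. These were Tnnc1, Tnnt2, Tnni3 and Tpm1, each a form used by the adult heart. Actc1 is also such a form and had no summit. Of the 88 summits that overlapped no gene in the list, 66 lay inside the RefSeq bounds of a protein-coding gene. By the closest transcription start Tnnt2 gained and Tnni3 lost its place, which left 3 members, against 2.88% of all genes. The count also stayed at 3 with only exon or UTR summits (3.99% of all genes) and with only summits in exactly 1 gene (3.8%).

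**Figure D3:**
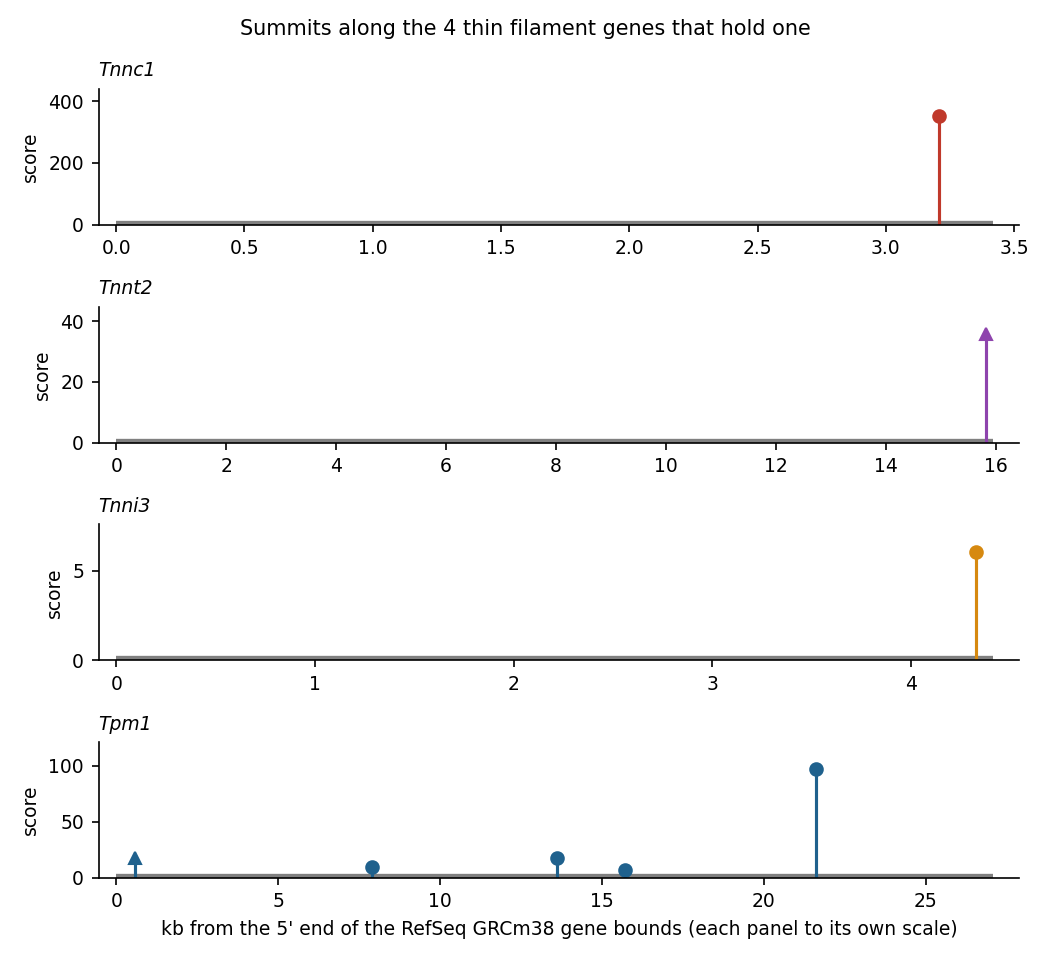
Summits along Tnnc1, Tnnt2, Tnni3 and Tpm1. The horizontal axis is the distance in kb from the 5′ end of the RefSeq gene bounds, to its own scale in each panel, and the height is the score (-log10 p or q). Triangles are the 2 summits that the list places in no gene. The single summits of the 3 troponins stand at the right end, 210, 129 and 85 bases from it in Tnnc1, Tnnt2 and Tnni3, and the 5 of Tpm1 are spread out.

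Tropomyosin, the strand that shields the myosin sites, was the member with the most summits. Tpm1 (ENSMUSG00000032366) had 4 in the list's assignment and 5 within its RefSeq bounds (67022590 to 67049672 on chromosome 9, minus strand). From 5′ to 3′, the scores were 17.9 at 67049104, 9.83 at 67041787, 17.9 at 67036048, 7.37 at 67033962 and 97.1 at 67028064. The list placed them in no gene, intron 1, exon 2, exon 3 and the last intron, in the same order. The last of them stood far above the others and held rank 103 of 2020, while the others lay between ranks 775 and 1367. Each of the 5 was the only summit of its peak, as were those of the troponins.

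The strongest Tpm1 summit was an intron summit in the model that the list used. Of the 116 summits that the list placed in introns, 5 scored as high or higher, this one included. Of the 11 in a last intron it was the highest. Tpm1 is known for alternative last exons, which differ between striated muscle and other cells. The summit lay 5474 bases before the distal 3′ end of the RefSeq gene. In GENCODE, 30 of the 44 protein-coding Tpm1 transcripts end at least 4000 bases before the distal end of the gene, most often 5305 bases before it, and 12 end within 10 bases of the distal end. Set side by side, 29 of the 44 would end 14 to 174 bases downstream of the summit, and the most common end 169 bases downstream. The canonical transcript is not among the 29. It ends 6260 bases before the distal end, so by the same count the summit would lie beyond its 3′ end. The length, GC content and sequences of Tpm1 given here are those of this canonical transcript. These distances come from annotations on GRCm38 and GRCm39 that were not aligned to each other, so the exon of the summit was not determined.

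The summit near the start of Tpm1 could be placed by counting on from a sequence match. It lay 109 bases downstream of the transcription start that RefSeq gives at 67049213, upstream of the list's model of the gene, which runs from 67022593 to 67043962. The 50 bases that follow the RefSeq start were found unchanged in 37 of the 44 protein-coding Tpm1 transcripts. Counted on from the RefSeq start, the summit would fall in the coding part of the first exon in all 37. That is coding base 29, the capital in the Tpm1 line. Bases beyond the matched 50 were not compared between GRCm38 and GRCm39. Summits so close to a start were uncommon in the list: 31 of 1606 summits in exactly 1 RefSeq coding gene (1.93%, 1.32 to 2.73%) lay within 300 bases of a RefSeq start.

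Summits at the 3′ end were shared by the troponins and by many other genes. The strongest summit lay within 300 bases of the 3′ end in 3 of the 4 members with one, namely Tnnc1, Tnnt2 and Tnni3. It did so in 280 of 719 genes with a summit in exactly 1 RefSeq coding gene (38.9%, 35.4 to 42.6%), and in 165 of the 319 that span at most 30000 bases (51.7%, 46.1 to 57.3%). Of the 719 genes, 270 (37.6%) stood from 150 to 299 bases before the end. Tnnc1 lay in that band. Tnni3 was the closest to its end of all 719 genes, and 4 genes lay closer than Tnnt2. Messenger RNA was selected in both libraries, and the part of that step in the position of summits was not tested.

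**Figure D4:**
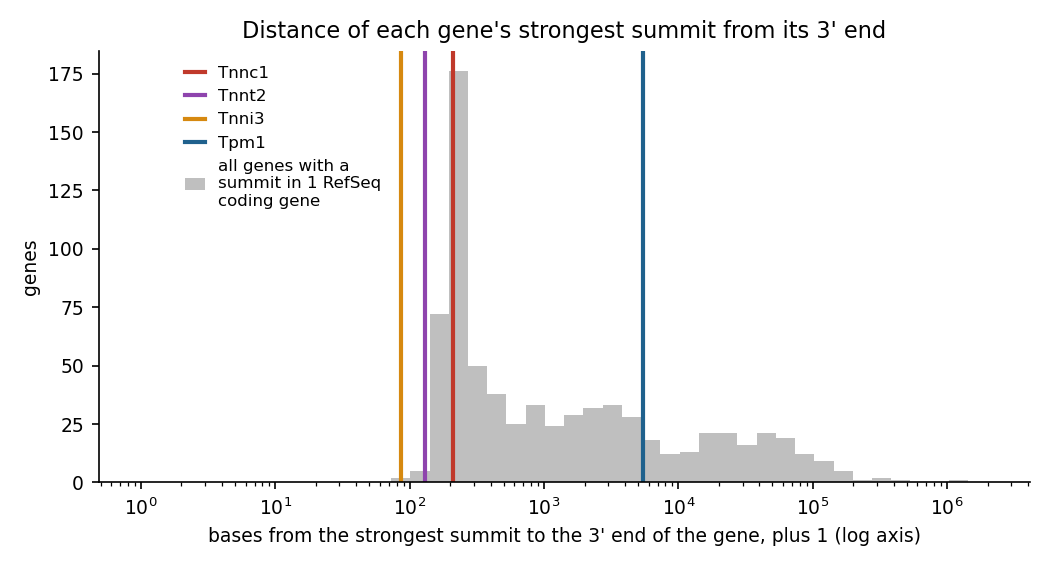
Distance in bases (plus 1, log axis) from the strongest summit of a gene to its 3′ end in RefSeq. Coloured lines are Tnnc1, Tnnt2, Tnni3 and Tpm1, and grey bars count the 719 genes with a summit in exactly 1 coding gene, these 4 included. The bars peak near 200 bases, at the line of Tnnc1, and few genes stand as near to the end as Tnni3 and Tnnt2.

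By the region that the list gives, 4 of the 6 member summits lay in exons (66.7%, 22.3 to 95.7%) and 2 in introns (33.3%, 4.33 to 77.7%). Both intron summits were in Tpm1. An exon here is one of a protein-coding gene, outside the UTRs listed, and whether the base is coding was not checked for this count. None was listed in a 3′ UTR (interval 0 to 45.9%). Among the 2020 summits of the list, such exons held 50.6%, 3′ UTRs 36.4% and introns 5.74%. Each of these shares lies within the interval of the members. The interval takes the 6 summits as independent, although 4 of them lay in Tpm1, and the 6 are part of the 2020. Whether the members depart from the list was therefore not tested.

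The actins, the backbone of the filament, and leiomodin 2 had no summit under any of the assignments tried. Actc1 (ENSMUSG00000068614), the cardiac alpha-actin, had its nearest summit 5245030 bases away in Vps18. Acta1 (ENSMUSG00000031972) had it 786603 bases away in Rpl13, and Lmod2 (ENSMUSG00000029683) 4828023 bases away in Flnc. None of the 3 had a summit within 5000 bases, so a modest change of gene bounds would give them none.

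Reads of near-identical genes can be split or lost in alignment, so the likeness of the members to their relatives was measured. The coding sequences of Actc1 and Acta1, both 1134 bases, were 86.2% identical, with a longest identical run of 29 bases. Actc1 and the cytoplasmic Actb were 82.7% identical, and Acta1 and Actb 84.8%, with a longest run of 77 bases. The troponins were further apart: Tnnc1 and the fast skeletal Tnnc2 were 68.8% identical, Tnni3 and Tnni1 54.7%, and Tnnt2 and Tnnt1 62.6%. Tpm1 and Tpm2 were 78.5% identical, with a longest run of 35 bases.

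No member shared a full read length, base for base, with an annotated transcript of another gene. In none of the 8 canonical transcripts did any window of 150 bases, the length of a read, occur in an annotated transcript of another gene on the same strand. At 50 bases, 13 of 3596 windows of Actc1 (0.362%) and 31 of 1599 windows of Acta1 (1.94%) were shared, and none in the other 6 members. Those of Acta1 were shared with Actb, Actg1 and actin pseudogenes among others. Those of Actc1 were shared with 482 other genes, and the gene that shared most of them, 11, was Oprk1, which is not an actin. Unannotated copies, genomic sequence outside annotated transcripts and windows that differ by a few bases were not searched. How reads that cross exon junctions were aligned was not tested.

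Members with and without a summit overlapped in base composition. GC content was 53.8% in the Tnnc1 transcript, 55.8% in Tnni3, 51.7% in Tpm1 and 55.1% in Tnnt2. It was 56.5% in Tnni1, 45.9% in Actc1, 57.3% in Acta1 and 46.7% in Lmod2, and the median over all canonical coding transcripts was 49.2%. Acetylated cytidine has been reported at CCG and in repeats of a cytidine followed by any 2 bases. In the last 90 coding bases, CCG occurred 1 time in Tnnc1 and 2 times in Tnni3 and in Tnnt2, and 45.3% of 21722 such stretches held it. It occurred 2 times in Tnni1, 1 time each in Actc1, Acta1 and Lmod2, and not in Tpm1. CNNCNNCNN occurred in none of the first 3, 1 time in Tpm1 and Lmod2, and 2 times in Tnni1, Actc1 and Acta1, and 68.7% of all stretches held it. Only the sense strand was searched, overlapping matches were counted, and the Tnnt2 summit, 129 bases from the end of a gene whose 3′ UTR is longer than that, lies outside its stretch if the ends are the same base. A match is letters only and not a site of NAT10.

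Other genes in or near the thin filament were taken as a list of 29 paralogs, caps and binding proteins, also chosen with earlier results known. Of these, 5 had a summit (17.2%, 5.85 to 35.8%), against 4.22% of all genes. Among the paralogs of the members, only the cytoplasmic actin Actb had one. The troponins Tnnc2, Tnni2, Tnnt1 and Tnnt3, the tropomyosins Tpm2, Tpm3 and Tpm4, the actins Actg1, Acta2 and Actg2, and the leiomodins Lmod1 and Lmod3 had none in the list's assignment. By the closest transcription start, Tnnt1 and Tpm2 gained a summit and Fhod3 lost its own. Nrap, an actin-anchoring protein of growing myofibrils, had 20 summits and a strongest score of 215. That strongest summit was not among those in exactly 1 RefSeq coding gene, of which the highest in Nrap scored 76.0. Mybpc3, cardiac myosin-binding protein C, belongs to the myosin filament and not to the thin one. It had 7 summits and a strongest score of 169. Cofilin 1 (Cfl1), which severs actin, had 1 at 132, Actb 2 with 37.5 as the stronger, and the formin Fhod3 6 with 31.2 as the strongest.

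Their strongest summits lay in the 3′ UTR in 4 of the 5, all but Fhod3. The median of their strongest scores was 132, and that of the 3 members was 97.1. The order of these medians rests on the Nrap summit at 215. With 76.0, its highest summit in exactly 1 RefSeq coding gene, the median of the 5 would fall below 97.1. Actb is expressed in most cell types, and the cells its signal came from were not tested.

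**Figure D5:**
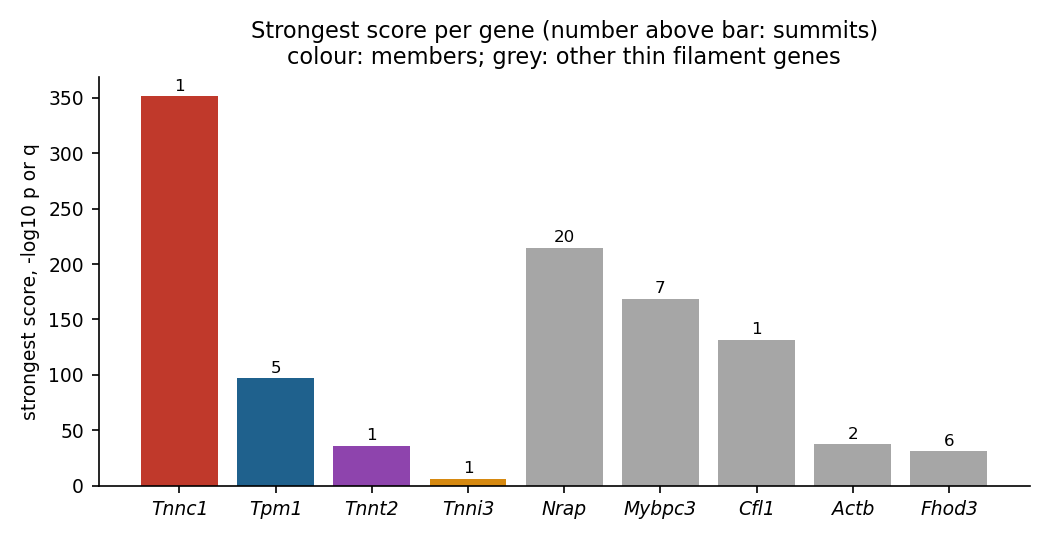
Strongest score (-log10 p or q) of each member and each gene of the further list with a summit. Coloured bars are Tnnc1, Tpm1, Tnnt2 and Tnni3, grey bars the other genes, and numbers above bars count summits (RefSeq bounds for the coloured bars). Tnnc1, with 1 summit, stands above Nrap, with 20. The strongest Nrap summit was not in exactly 1 RefSeq coding gene.

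Heart muscle markers were present in the list in part. Of 15 cardiomyocyte markers, 6 had a summit (40.0%, 16.3 to 67.7%), against 4.22% of all protein-coding genes. Among the 6 were Myh6 and Ryr2, while Myl2, Myl3, Pln and Mb had none in the list's assignment. By RefSeq bounds Myl2 and Tnnt2 also held a summit, at scores of 9.23 and 35.9. The 15 include Tnni3, Tnnt2 and Actc1, so this count is not independent of the members, and Ckm stands in the skeletal list too. None of 11 skeletal muscle markers had one (interval 0 to 28.5%). For other cells found in heart tissue, the markers with a summit were 1 of 6 for smooth muscle and mural cells, 2 of 5 for endothelium, 2 of 6 for fibroblasts and 1 of 4 for macrophages. The strongest scores of these other markers ran from 2.69 to 24.9, and their part in the thin filament signal was not tested.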

How the data were processed

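RNA bound to FLAG-NAT10 (RIP) and Input RNA of mouse heart were sequenced as paired reads of 150 bases, with 1 library each. The submitters' processing notes name fastp for cleaning reads, BWA 0.7.12 for alignment, and MACS2 2.1.0 and HOMER without a role. The header of the score column is a spreadsheet error. The deposited scores were read from their values as -log10 of a p-value or q-value, and which of the 2 is unknown. The other columns used, deposited by the authors, were positions and distances in bases.

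The notes name GRCm39, but 98.8% of 1912 gene lines lay inside the gene of that symbol in RefSeq GRCm38, so positions are given as GRCm38. A summit on several gene lines entered 1 time, with 1 region. Depth is unknown, since the file holds no counts, and intervals cover counting error only. Gene totals, transcript lengths and sequences came from GENCODE mouse release 39 and RefSeq. Coding sequences were aligned with Biopython 1.88, and pandas 2.3.3 and scipy 1.17.1 made the counts and intervals. Overlap code was tested on simulated data. The members and lists were chosen with earlier results of these data known. All members were named, and of the 29 further genes those with a summit and the paralogs without. The closing section gives the alternatives.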

Additional observations from a re-analysis of the deposited data

How the results depend on the processing

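The count of members with a summit was 3 in the list's own assignment and ranged from 2 to 4 over 6 alternatives, and that of the 29 further genes was 5 and ranged from 5 to 6. The members had 6 summits, of which 3 were left when the threshold was the list's median and 2 when it was the upper quartile, as fewer summits enter. With RefSeq bounds there were 8, and merging summits within 200 bases left 6. The median of the strongest score per member was 97.1, and 13.9 when each gene was given the median of its summits, since Tpm1 has 4 summits and 1 of them is far above the rest. That median lay at percentile 93.9 among genes with a summit, and at 94.5 without the mitochondrial chromosome. Exons held 4 of the 6 summits, and 4 of 8 when the 2 that the list places in no gene were added with that label, a setting chosen after seeing the data. Counted on from the sequence match at the Tpm1 start, 1 of these 2 would fall in the coding part of Tpm1, which would make 5 of 8. No paired analysis was possible because each group holds 1 library. Depth is unknown, so no summit does not show that a gene lacked signal.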
